A study of Homo sapiens with 4 samples.

Results

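The ATF4 and CHOP stress transcription regulators were 10 genes: ATF4, ATF3, ATF5, DDIT3 (which encodes CHOP), TRIB3, CEBPB, CEBPG, PPP1R15A, NUPR1 and CHAC1. They were chosen by name, as every probe set whose annotation names 1 of them and no other gene, which gave 18 of the 41097 probe sets that name a single gene and 10 of 19775 genes. They were measured in 2 human breast cancer cell lines, T-47D, which expresses the estrogen and progesterone receptors, and MDA-MB-231, which is triple negative. Cells of each line were kept for 24 h with 100 µM JPH203, an inhibitor of the amino acid transporter LAT1, or with 100 µM Captisol as the control. The sources used here do not state whether the JPH203 cultures also held Captisol, so the effects of adding JPH203 and of leaving out Captisol cannot be told apart. Each of the 4 conditions was read on 1 Affymetrix array, so the groups are T-47D with JPH203, T-47D control, MDA-MB-231 with JPH203 and MDA-MB-231 control with 1 sample each. No value below has an error, and no difference has a test. Each array read the RNA of a whole culture, so a gene used by more of the cells and more RNA per cell cannot be told apart.

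The members belong to the integrated stress response. In that response a kinase such as GCN2, which senses uncharged tRNA when amino acids run short, phosphorylates the translation factor eIF2α. Most protein synthesis then slows, while the ATF4 mRNA is translated more, because short open reading frames upstream of its coding sequence are bypassed. ATF4 is a basic leucine zipper (bZIP) factor that pairs with C/EBP proteins on C/EBP-ATF response elements (CARE) and switches on amino acid synthesis enzymes, amino acid transporters and further stress regulators. CHOP, a C/EBP relative made later in the response, is known for its part in cell death under lasting stress. mRNA signals, as given here, do not measure translation or protein.

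Across the family, the JPH203 array of T-47D was higher than its control for DDIT3, TRIB3, ATF4, CEBPG and CEBPB by at least 2-fold, and no member fell by that much. In MDA-MB-231 no member reached a 2-fold change in either direction where it could be measured. A probe set is called higher at a ratio of at least 2 and lower at a ratio of at most 0.5, in both cases only where both arrays compared read 100 or more, in the arbitrary intensity units of the deposited values. In T-47D, 8 of the 18 member probe sets, of 8 genes, reached that signal, and 5 were called higher and 0 lower. Of all 10258 probe sets that reached it in T-47D, 2.22% were called higher and 2.45% lower. With signals scaled to the transcripts spiked into the RNA, 3 of the 5 (DDIT3, TRIB3 and ATF4) were still at 2-fold or more, beside 0.292% of all probe sets. In MDA-MB-231, 9 member probe sets of 7 genes reached it, with 0 called higher and 0 lower, beside 0.0880% called higher and 0.0176% called lower among all 11370. The median log2 ratio of the measured members was 1.09 in T-47D, where that of all probe sets was -0.02, and 0.02 in MDA-MB-231, where that of all was -0.01.

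The cell line labels matched the marker genes. On the control arrays, 6 of 7 mesenchymal markers were higher in MDA-MB-231 by 2-fold or more (the other, SPARC, was below 100 in both controls) and all 7 luminal markers, with ESR1 and PGR among them, were higher in T-47D by 2-fold or more. From 10831 to 11857 probe sets reached 100 on an array. Their ratio of 3' to 5' signal for ACTB, a sign of RNA integrity, was 1.72 on the JPH203 array of T-47D and 1.39 on its control, against 1.44 and 1.45 on the JPH203 and control arrays of MDA-MB-231. The same ratio for GAPDH was 0.867 and 0.940 in T-47D and 1.01 and 0.987 in MDA-MB-231, so the 2 measures moved in opposite directions in T-47D. There the JPH203 over control ratio also moved with brightness: its median was 0.929 over probe sets whose geometric mean signal was from 100 to below 1000, 1.17 from 1000 to below 10000 and 1.43 above that. The same medians in MDA-MB-231 were 1.00, 0.967 and 0.938. The poly-A spike-in transcripts, which are added to the RNA, were 1.55-fold higher on the JPH203 array than on the control array of T-47D. Their ratio was 0.937 in MDA-MB-231 and 0.304 for the MDA-MB-231 control over the T-47D control. The hybridization controls, a separate set of added transcripts, had ratios of 1.19, 0.989 and 0.651 in the same order. How much of the spike-in shift comes from the amount of RNA was not tested. The part of RNA integrity in the T-47D ratios was not tested. Ratios with the brightness trend removed are given below for ATF4, CEBPB and NUPR1. For DDIT3, TRIB3 (218145_at) and CEBPG (204203_at) those T-47D ratios were 9.57, 3.31 and 2.40.

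Promoter sequence was compared because 5 of these genes moved together in T-47D. RefSeq promoters of GRCh38.p14, the 250 bases before each start site, were given for 9 of the 10 members (18 promoters); NUPR1 is named only. The CARE core TGATGCAA, on either strand, was present in 2 of the 9 genes, CHAC1 and CEBPG, and in 0.967% of 27305 genes. By promoter it was in 2 of 18 and in 0.772% of 35116. Of the 5 genes called higher in T-47D, CEBPG alone had it, and CHAC1 was below 100 on every array. Sites more than 250 bases upstream were not searched, so a gene without a match may still have one. The looser pattern TGATGNAA, which contains the core, was found in those 2 genes and ATF3, and in 3.89% of genes. The cyclic AMP response element TGACGTCA was found in PPP1R15A alone of the members, and in 2.03% of genes. The AP-1 site TGACTCA was found in DDIT3 and ATF5, and in 5.19% of genes. The CCAAT box (CCAAT or ATTGG) was found in 5 members, ATF3, CEBPB, CEBPG, CHAC1 and DDIT3, and in 37.0% of genes. The windows of CHAC1 and CEBPG are printed for their CARE core, that of DDIT3 because its ratio was the highest of all, and that of PPP1R15A for its cyclic AMP response element; capitals mark these letter matches, which are not measured binding sites. CHAC1 is on the plus strand at chr15:40953221-40953320, CEBPG on the plus strand at chr19:33374060-33374089, DDIT3 on the minus strand at chr12:57520518-57520767, and PPP1R15A on the plus strand at chr19:48872321-48872420.
CHAC1: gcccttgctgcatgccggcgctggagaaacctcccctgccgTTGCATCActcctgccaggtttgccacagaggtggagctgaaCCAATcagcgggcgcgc
CEBPG: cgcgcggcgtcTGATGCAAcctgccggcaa
DDIT3: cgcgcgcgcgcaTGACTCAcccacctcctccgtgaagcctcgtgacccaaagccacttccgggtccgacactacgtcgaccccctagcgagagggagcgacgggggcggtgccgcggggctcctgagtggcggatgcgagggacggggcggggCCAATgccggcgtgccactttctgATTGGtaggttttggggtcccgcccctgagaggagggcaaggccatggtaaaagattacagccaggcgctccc
PPP1R15A: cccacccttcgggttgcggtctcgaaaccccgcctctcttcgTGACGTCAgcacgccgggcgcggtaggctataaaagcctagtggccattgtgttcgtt

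ATF4, the factor at the head of the pathway, had a signal of 5593 with JPH203 and 1676 in the control of T-47D, and of 1357 with JPH203 and 1466 in the control of MDA-MB-231. The T-47D array with JPH203 thus stood apart from the other 3, which lay close to each other. The ratio was 3.34 in T-47D, rank 24 from the highest of 10258 probe sets, and 0.925 in MDA-MB-231, rank 8373 of 11370. For probe sets of like brightness in T-47D (geometric mean from 1000 to below 10000), the central 95% of ratios ran from 0.585 to 2.10, so ATF4 lay above it. After loess on signal, which removes the trend with brightness, the T-47D ratio was 2.82. It was 2.56 after quantile normalization and 2.15 with the spike-ins, just past 2-fold. In this line the CHOP and TRIB3 genes, which ATF4 is known to switch on, were also among the highest ratios.

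ATF3, a bZIP factor that ATF4 induces and that can repress transcription, had 3 probe sets. The brightest, 202672_s_at, had a signal of 311 with JPH203 and 224 in the control of T-47D, and of 88.6 and 81.3 with JPH203 and in the control of MDA-MB-231. Its ratio in T-47D was 1.39, short of 2-fold and within the central 95% of all ratios there (0.501 to 1.97), and 0.896 once scaled to the spike-ins. Probe set 1554980_a_at had 129 with JPH203 and 50.9 in the control of T-47D, and 47.8 and 36.1 in MDA-MB-231. The first array alone passed 100, and no size is taken from its ratio of 2.53. The third, 1554420_at, was at 2.90 and 15.8 in T-47D and at 6.0 and 1.0 in MDA-MB-231, with JPH203 first in each pair, and gave ratios of 0.184 and 6.0. At such dim signals (geometric mean from 1 to below 10) the central 95% of ratios spanned 0.0755 to 18.2 in T-47D and 0.0769 to 12.7 in MDA-MB-231, and no direction is read from this probe set.

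ATF5, a bZIP factor whose translation is also raised by eIF2α phosphorylation, had 4 probe sets, and its brightest was nearly level on all arrays. That probe set, 204998_s_at, had 119 with JPH203 and 129 in the control of T-47D, and 123 with JPH203 and 137 in the control of MDA-MB-231, for ratios of 0.924 and 0.899. The other 3 were below 100 throughout: 204999_s_at lay between 40.1 and 53.7, 217389_s_at between 2.20 and 2.90, and 230938_x_at between 5.0 and 35.4. For 230938_x_at the signal was 35.4 with JPH203 and 5.0 in the control of T-47D. Its ratio of 7.08 was above the central 95% for its brightness (10 to below 100), which ran from 0.303 to 3.62. Probe sets with the suffix _x_at hold probes that can bind unrelated transcripts, those with _s_at probes shared by several transcripts, and the 2 brighter ATF5 probe sets did not share this ratio.

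DDIT3 had the highest ratio of all 10258 probe sets measured in T-47D. Its one probe set had a signal of 2269 with JPH203 and 238 in the control of T-47D, and of 153 with JPH203 and 106 in the control of MDA-MB-231. The ratios were 9.53 in T-47D and 1.44 in MDA-MB-231, where it ranked 108 of 11370 without reaching 2-fold. In MDA-MB-231 the central 95% of ratios for this brightness (100 to below 1000) was 0.759 to 1.37, and DDIT3 lay just above it. The T-47D ratio stayed high under each scaling tried, between 6.14 with the spike-ins and 9.64 with median centring. The MDA-MB-231 signal was 0.0673 of that in T-47D with JPH203 and 0.445 of it in the controls, and with the spike-ins these ratios were 0.367 and 1.47.

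CEBPB and CEBPG encode C/EBP proteins that pair with ATF4, CEBPG without an activation domain of its own. CEBPB had a signal of 2416 with JPH203 and 1194 in the control of T-47D, and of 1382 with JPH203 and 1138 in the control of MDA-MB-231. Its T-47D ratio of 2.02 was barely past 2-fold, lay inside the central 95% for its brightness (0.585 to 2.10), and was 1.85 after loess, 1.77 after quantile normalization and 1.30 with the spike-ins. In MDA-MB-231 the ratio was 1.21. CEBPG had 2 probe sets. The brighter, 204203_at, had 508 with JPH203 and 225 in the control of T-47D, against 181 and 178 in MDA-MB-231, for ratios of 2.25 and 1.01. The other, 225527_at, had 176 and 91.6 in T-47D and 178 and 152 in MDA-MB-231, with JPH203 first. Its T-47D ratio, 1.92, ran the same way as that of the first probe set but has a control signal below 100.

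TRIB3, a pseudokinase that ATF4 and CHOP induce and that in turn restrains them, had 2 probe sets, of which 218145_at alone reached 100 on every array. Probe set 218145_at had a signal of 3454 with JPH203 and 945 in the control of T-47D, and of 189 with JPH203 and 141 in the control of MDA-MB-231. The ratio of 3.66 ranked 14 in T-47D, and that of 1.34 ranked 247 in MDA-MB-231. Probe set 1555788_a_at had 244 with JPH203 and 47.5 in the control of T-47D, and 21.6 and 12.4 in MDA-MB-231. Its T-47D array with JPH203 was the only one above 100, and no size is taken from its T-47D ratio of 5.15.

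PPP1R15A, also called GADD34, brings protein phosphatase 1 to eIF2α and so helps to end the response. Probe set 37028_at had 58.1 with JPH203 and 48.6 in the control of T-47D, and 145 with JPH203 and 143 in the control of MDA-MB-231. Probe set 202014_at had 28.8 and 7.90 in T-47D and 117 and 127 in MDA-MB-231, in the same order. In MDA-MB-231, where both were measured, the ratios were 1.01 and 0.919, close to level. In T-47D both were below 100, and the 2 ratios (1.20 and 3.65) differed, so no size is read from them.

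NUPR1, a small stress-induced chromatin protein, differed far more between the lines than with JPH203. Its signal was 13739 with JPH203 and 7968 in the control of T-47D, and 45.2 with JPH203 and 17.3 in the control of MDA-MB-231. The T-47D ratio was 1.72, short of 2-fold. It lay just above the central 95% for very bright probe sets there (1.11 to 1.68 over 198 with a geometric mean of at least 10000). After loess it was 1.24. The MDA-MB-231 ratio of 2.61 comes from signals below 100.

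CHAC1, an enzyme that breaks down glutathione and a known target of ATF4, was below 100 on every array. Its signal was 90.0 with JPH203 and 19.3 in the control of T-47D, and 16 with JPH203 and 2.90 in the control of MDA-MB-231. The JPH203 array was the higher in both lines, with ratios of 4.66 and 5.52. The T-47D ratio lay above the central 95% for its brightness (0.303 to 3.62, with 12.1% of those probe sets at 2 or more), and the MDA-MB-231 ratio lay within it (0.0769 to 12.7, with 29.8% at 2 or more).

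**Figure D1:**
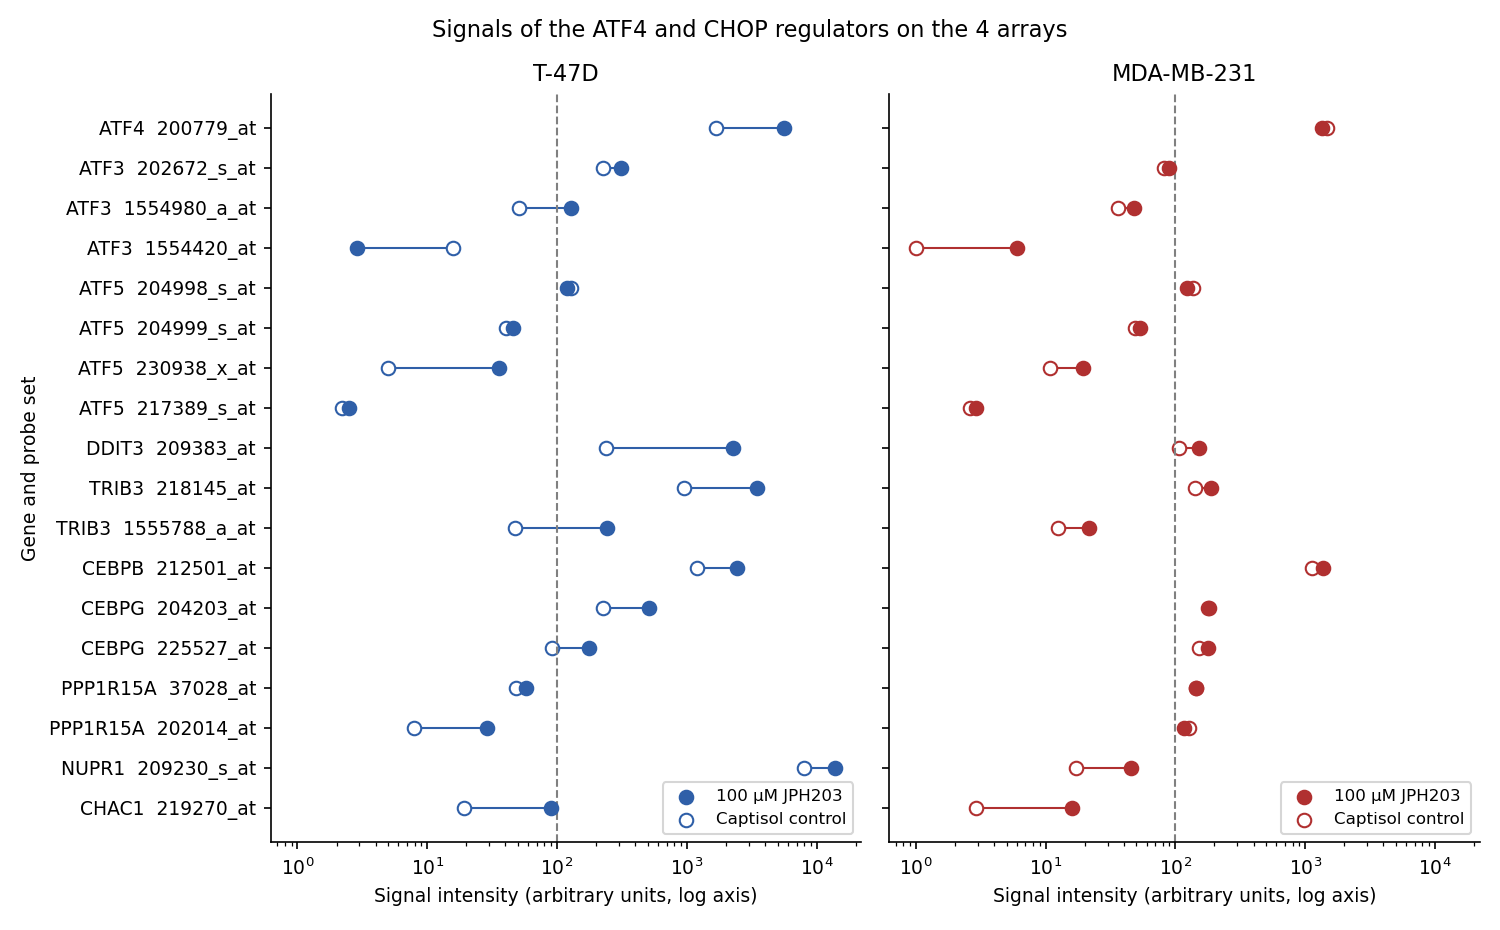
Signal intensity (arbitrary units, log axis) of all 18 member probe sets on the 4 arrays, T-47D on the left and MDA-MB-231 on the right, with JPH203 as filled points and the Captisol control as open points; the dashed line is a signal of 100. ATF4, DDIT3 and TRIB3 are clearly further right with JPH203 in T-47D. In MDA-MB-231 the measured pairs lie within 2-fold, with DDIT3 (ratio 1.44) and TRIB3 (218145_at, 1.34) the furthest apart.

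**Figure D2:**
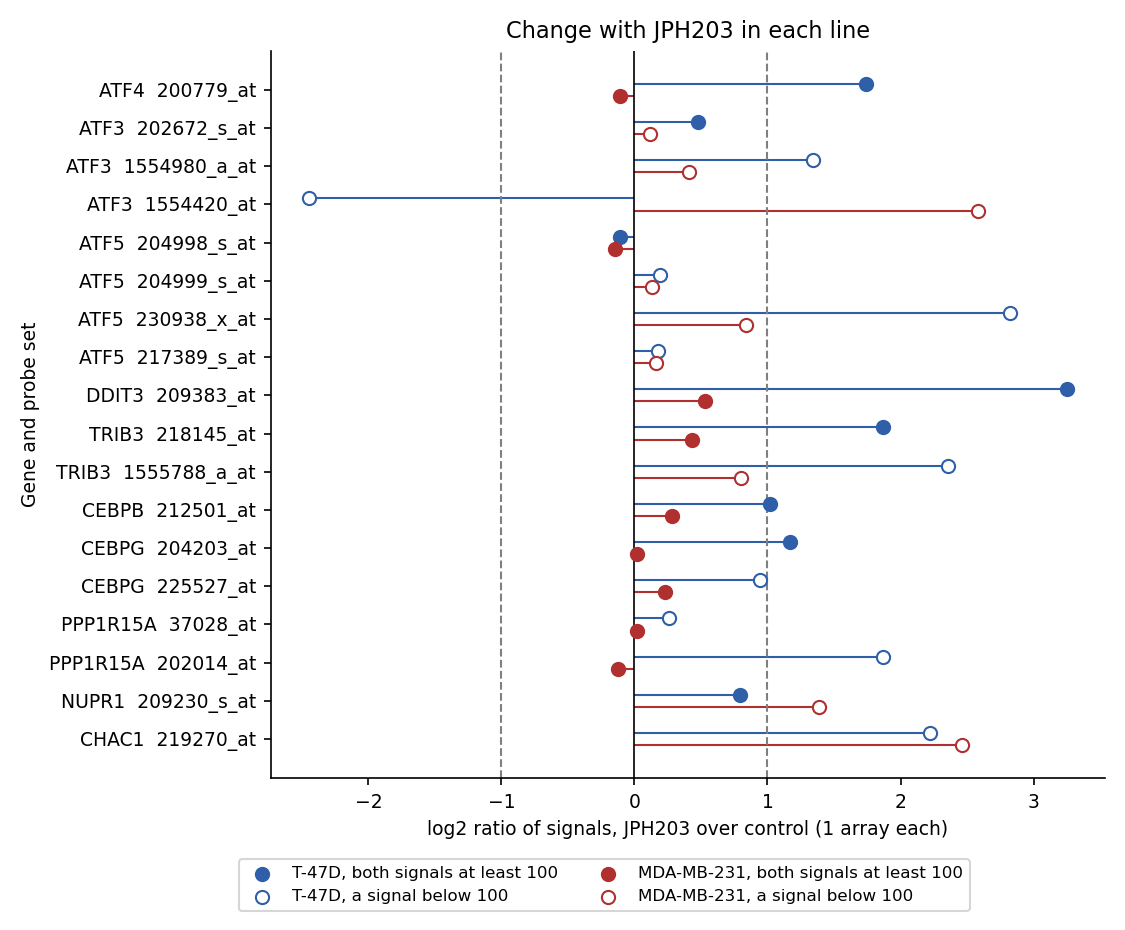
log2 ratio of JPH203 over control for each member probe set in T-47D (blue) and MDA-MB-231 (red), 1 array each; filled points reached 100 on both arrays and dashed lines mark 2-fold. The 5 filled points past the right-hand line are all T-47D, and open points give no size.

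The JPH203 over control ratios of DDIT3, ATF4, TRIB3 (218145_at) and CEBPG (204203_at) were higher in T-47D than in MDA-MB-231, by more than 2-fold on the signals as deposited. The difference of the log2 ratios, T-47D minus MDA-MB-231, was 2.72 for DDIT3, 1.85 for ATF4, 1.44 for TRIB3, 1.15 for CEBPG, 0.74 for CEBPB and 0.04 for ATF5. Their median was 1.30. With the spike-ins the same differences were 2.0, 1.12, 0.72, 0.43, 0.01 and -0.69, so CEBPB was level and the sign turned for ATF5, whose ratio was below 1 in both lines. Over all 8346 probe sets measured on all 4 arrays the median was -0.00, the central 95% ran from -1.09 to 1.07, 49.8% were above 0 and 3.22% were at least 1. On the signals as deposited DDIT3 ranked 2 and ATF4 ranked 15 from the highest, and CEBPB and ATF5 lay within the central 95%. The other CEBPG probe set, 225527_at, had a difference of 0.71, short of 2-fold, and its T-47D control signal of 91.6 was below 100. With 1 array per condition the difference between the lines cannot be tested.

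**Figure D3:**
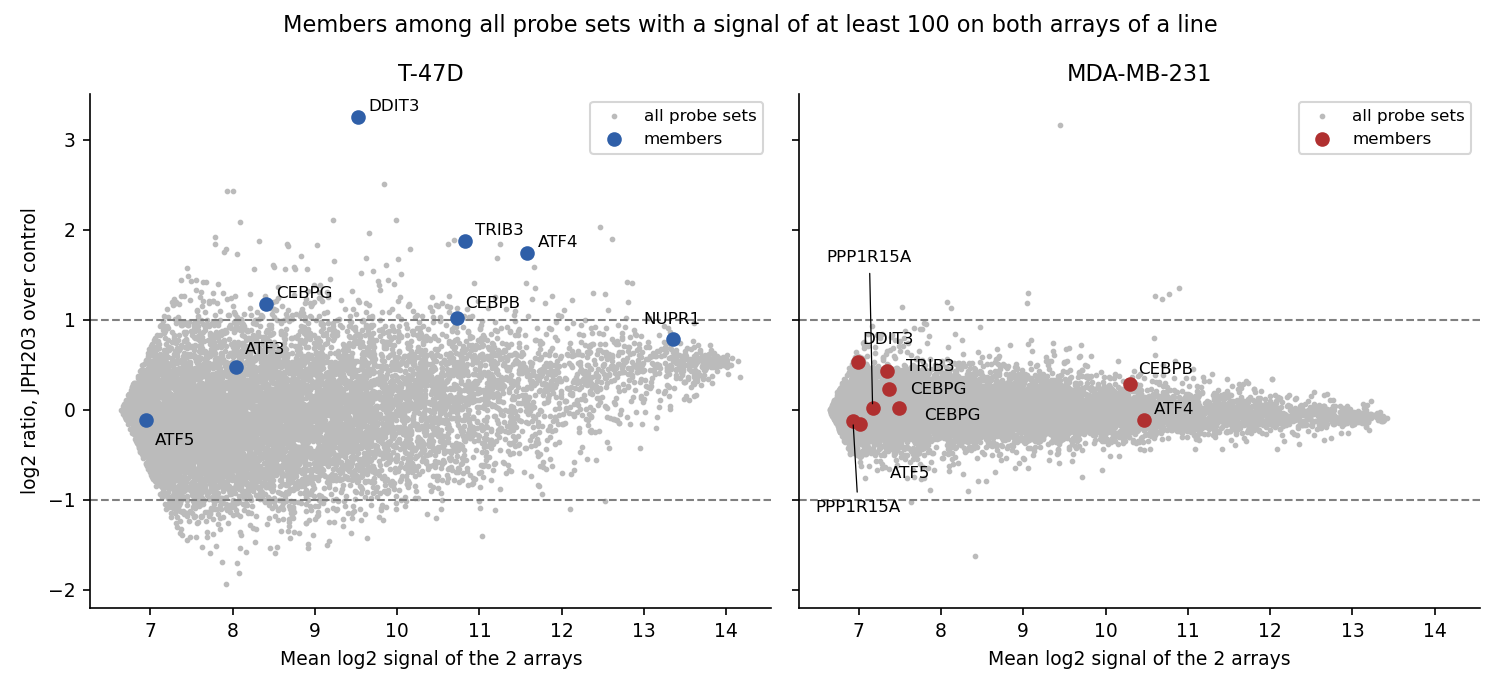
log2 ratio of JPH203 over control against the mean log2 signal of the 2 arrays, for all probe sets that reached 100 on both (grey) and the members (coloured, named), T-47D on the left and MDA-MB-231 on the right; dashed lines mark 2-fold. In T-47D DDIT3 is the highest point of all and the grey cloud bends upward at high signal, where NUPR1 lies; in MDA-MB-231 every member sits within 2-fold.

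Without JPH203, DDIT3 and TRIB3 were lower in MDA-MB-231 than in T-47D, and ATF4, CEBPB and ATF5 were near level, on the signals as deposited. Of the 6 member probe sets that reached 100 on both control arrays, 0 were called higher and 2 lower in MDA-MB-231, beside 15.8% called higher and 14.8% called lower among all 9199. TRIB3 had 141 in the MDA-MB-231 control and 945 in the T-47D control, a ratio of 0.149, rank 74 from the lowest. DDIT3 had 106 and 238 in the same order, a ratio of 0.445, and this direction turned to 1.47 with the spike-ins, a scaling that shifts every ratio of these 2 arrays by 1.72 on the log2 scale. The ratios of ATF4, CEBPB, CEBPG (204203_at) and ATF5 were 0.875, 0.953, 0.792 and 1.06, all within 2-fold. The other CEBPG probe set, 225527_at, ran the other way from 204203_at, with 152 in the MDA-MB-231 control. Its T-47D control read 91.6, below 100. With the spike-ins the ratios of ATF4, CEBPB, CEBPG (204203_at) and ATF5 were 2.88, 3.14, 2.61 and 3.50, all past 2-fold. So were 78.7% of all probe sets under that scaling, and nothing particular to these members is read from it.

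Other members were bright in a single line. NUPR1 had 17.3 in the MDA-MB-231 control and 7968 in the T-47D control. ATF3 (202672_s_at) had 81.3 and 224 in that order. PPP1R15A ran the other way, with 143 and 48.6 for 37028_at and 127 and 7.90 for 202014_at, so that both of its probe sets passed 100 in MDA-MB-231 only. As a signal below 100 is on one side of each of these pairs, no fold is read.

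The genes that ATF4 is known to switch on were counted by list, with the brightest probe set standing for a gene. Among all 6413 genes measured in T-47D, 2.20% were called higher and 2.39% lower, and among all 6757 in MDA-MB-231, 0.0888% were called higher and 0.0148% lower. Of 13 amino acid synthesis enzymes, 9 were measured in T-47D, where 1 was called higher and 0 lower, and 9 in MDA-MB-231, where 3 were called higher and 0 lower. Their median log2 ratio was 0.83 in T-47D and 0.36 in MDA-MB-231, where all genes gave -0.02 and -0.01. ASNS, asparagine synthetase, was called in both lines: 2105 with JPH203 and 488 in the control of T-47D, and 2091 with JPH203 and 234 in the control of MDA-MB-231. Its ratio, 4.31 in T-47D, was 8.93 in MDA-MB-231, the line in which ATF4, DDIT3 and TRIB3 stayed under 2-fold. PSAT1, of serine synthesis, had 361 and 193 in T-47D and 2739 and 1122 in MDA-MB-231, with JPH203 first, and was called in MDA-MB-231 (2.44) but not in T-47D (1.87), a difference that was not tested. CTH, which makes cysteine from cystathionine, had 95.5 and 137 in T-47D and 412 and 188 in MDA-MB-231, and its ratio was 2.20 in the second line.

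Amino acid transporters of the ATF4 target list gave 5 measured genes in each line, with none called in either, and medians of 0.41 in T-47D and 0.39 in MDA-MB-231. SLC7A5, which encodes LAT1, had 834 with JPH203 and 502 in the control of T-47D, and 2024 with JPH203 and 1168 in the control of MDA-MB-231, for ratios of 1.66 and 1.73. SLC38A2, a carrier of small neutral amino acids, had ratios of 0.593 and 1.14. Of the signalling and stress targets, 11 were measured in T-47D, with 1 called higher and 1 lower, and 9 in MDA-MB-231, with 0 called, and the median was 0.35 in each. EIF4EBP1, a repressor of cap-dependent translation, was called higher in T-47D with 1479 with JPH203 and 716 in the control. NDRG1, a stress-responsive gene, was called lower there, with 170 and 436 in that order, and had a ratio of 1.57 in MDA-MB-231.

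The genes around CHOP and eIF2 showed few calls. Of the CHOP target and cell death list, 5 genes were measured in T-47D, with 0 called higher and 1 lower, and 9 in MDA-MB-231 with 0 called. The gene called lower was MCL1, which opposes apoptosis: its brightest probe set had 525 with JPH203 and 1169 in the control of T-47D, and 1448 and 1275 in MDA-MB-231. ERO1A, an oxidase of the endoplasmic reticulum, had ratios of 0.813 and 1.25. Of the eIF2 kinases and eIF2 control genes, 19 were measured in T-47D and 20 in MDA-MB-231, with 0 called in either and medians of 0.13 and -0.05. The phosphatase subunits PPP1CA and PPP1CC, partners of the PPP1R15A protein, had ratios of 1.15 and 1.19 in T-47D and of 0.913 and 0.958 in MDA-MB-231.

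The other bZIP families were measured for comparison with the members. Among other C/EBP, ATF and CREB factors, 13 were measured in T-47D, with 1 called higher and 0 lower, and 10 in MDA-MB-231 with 0 called, and the medians were 0.10 and 0.13. The called gene was CREM, named after its values were seen, with 240 with JPH203 and 105 in the control of T-47D and a ratio of 0.990 in MDA-MB-231. CREB3 and CREB3L2, the brightest of this list, had ratios of 1.12 and 0.669 in T-47D. AP-1 and NRF factors gave 5 measured genes in T-47D, all with a ratio below 1 and a median of -0.21. Of all genes there, 48.2% had a ratio above 1. With the mean of all its probe sets for a gene, 2 of these factors were measured in T-47D, and 1 was above 1. In MDA-MB-231, 9 were measured by the brightest probe set, with a median of 0.22, and none was called in either line. JUN and NFE2L2 had ratios of 0.865 and 0.764 in T-47D and of 0.920 and 1.24 in MDA-MB-231.

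The arms of the endoplasmic reticulum stress response that run through ATF6 and IRE1, in which CHOP is also induced, had no calls. Of these, 13 genes were measured in T-47D and 14 in MDA-MB-231, with medians of -0.15 and 0.04. HSPA5, the chaperone BiP and a standard marker of this response, had 6564 with JPH203 and 6794 in the control of T-47D, and 7488 and 7484 in MDA-MB-231. HSP90B1, a chaperone of the same compartment, had ratios of 0.888 and 1.10. Genes of ATF4 turnover and regulation gave 3 measured in T-47D and 5 in MDA-MB-231, 0 called, with medians of -0.19 and -0.02. GGCT, an enzyme of the same reaction type as CHAC1, had ratios of 0.876 and 0.935, and FBXW11, a ubiquitin ligase subunit, had 0.780 and 0.988.

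**Figure D4:**
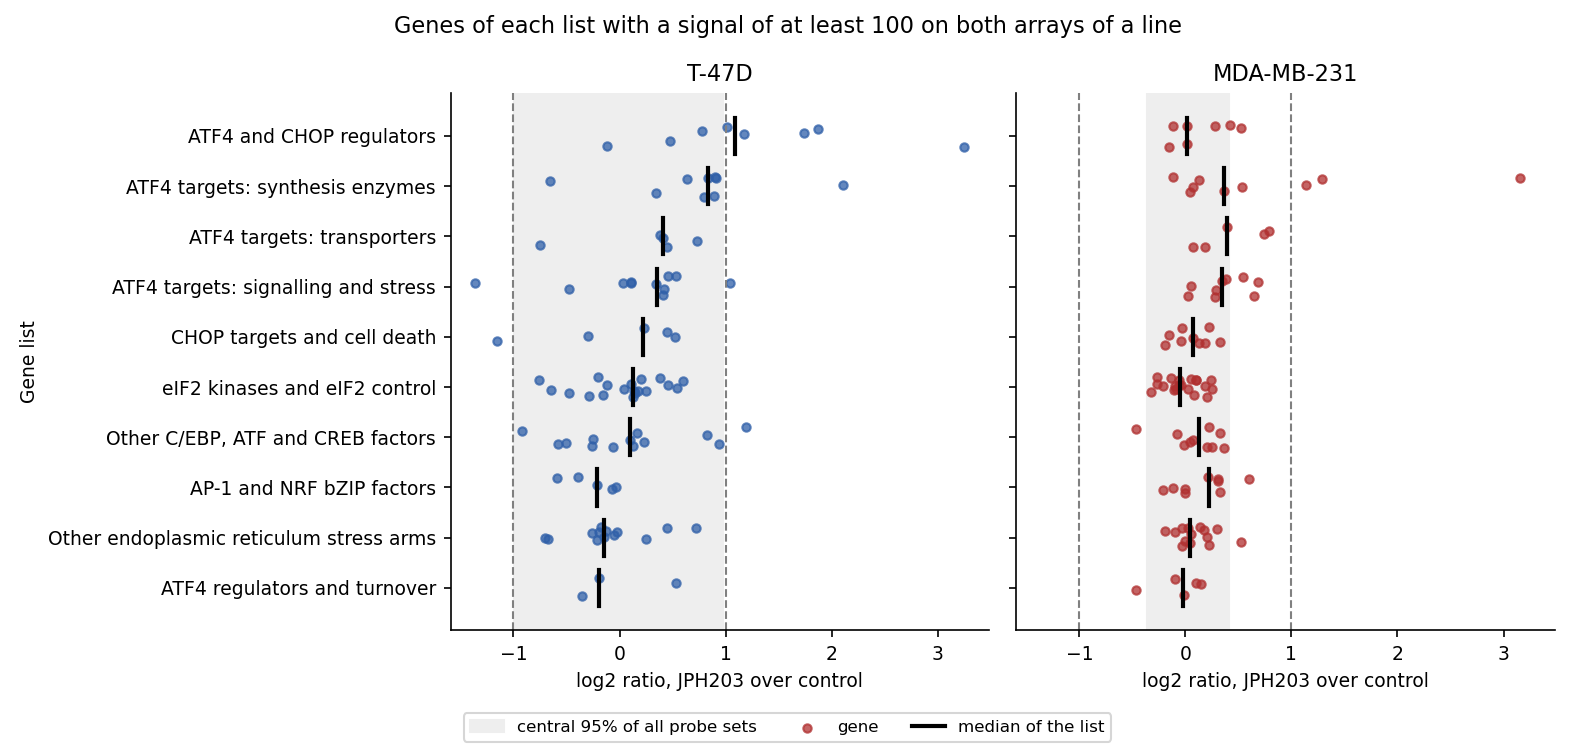
log2 ratio of JPH203 over control for each measured gene (point) of the 10 lists, T-47D on the left in blue and MDA-MB-231 on the right in red; black bars are list medians, the grey band is the central 95% of all probe sets and dashed lines mark 2-fold. The ATF4 and CHOP regulators have the rightmost median in T-47D (1.09), and in MDA-MB-231 the gene furthest right is ASNS in the synthesis enzymes.

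The genes closest in pattern to ATF4 and DDIT3 were sought over 3 log2 ratios (JPH203 over control in each line and the MDA-MB-231 control over the T-47D control), by Euclidean distance among 5275 genes with at least 100 on all 4 arrays. Nearest to ATF4 were HMMR (0.24), SNHG32 (0.29), GIHCG (0.45), RPL22L1 (0.47) and RSL24D1 (0.47). HMMR, a receptor for hyaluronan that also works at the mitotic spindle, had 1591 with JPH203 and 409 in the control of T-47D, and 303 and 346 in MDA-MB-231. DDIT3 had no neighbour so near. The closest were EPB41L4A-AS1 (1.47), RSL24D1 (1.59), COMMD2 (1.74), HMMR (1.75) and ANKRD49 (1.80), and their T-47D ratios, from 2.99 to 3.89, were all below the 9.53 of DDIT3. No other member of the family was among the 5 nearest genes of either.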

How the data were processed

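The 4 arrays (Affymetrix U133 Plus 2.0) had 54675 probe sets each. The authors deposited 1 linear signal intensity per probe set, and the submitters' processing notes name GCOS; its version and settings are not given in the sources used here. With 2% trimmed from either end, every array averaged 99.98, as scaling to 1 target gives. Gene names came from the platform annotation: 41097 probe sets name 1 gene, 1801 several and 11777 none listed, and 41043 matched RefSeq, with 0 symbols changed. No column of other samples was present (0 unused), and no detection calls were used.

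With 1 array per condition, ratios were formed from the signals as deposited, with no pseudocount, and called at 2-fold with at least 100 on both arrays; the number of arrays limits the precision. The 2-fold threshold follows the study's methods. The members and the 9 other gene lists were chosen with earlier results of these data known. Named genes were all members, up to 4 called genes with the largest change per list (or, with under 2 called, the 2 brightest), and the 5 nearest genes of ATF4 and DDIT3. The brightest probe set, by mean log2 signal, stood for a gene. Promoter letters came from RefSeq (GRCh38.p14); this build is not stated for the arrays. Python 3.11.15, numpy 2.4.6, pandas 2.3.3, statsmodels 0.14.6 and matplotlib 3.10.9 were used, and the calling code was checked on simulated signals. In all, 11 alternatives were run: minimum signals of 50 and 200, 100 on 1 array, thresholds of 1.5 and 3, median centring, quantile normalization, loess (span 0.4), a pseudocount of 16, no _x_at or _s_at probe sets and, chosen after seeing the data, scaling to the poly-A spike-ins.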

Additional observations from a re-analysis of the deposited data

Results flagged for a closer look

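The ATF4 ratio was above 1 in T-47D, where it was called, and slightly below 1 in MDA-MB-231, where it was not, with more than 100 on each of the 4 arrays. Its signal was 5593 with JPH203 and 1676 in the control of T-47D (ratio 3.34), and 1357 with JPH203 and 1466 in the control of MDA-MB-231 (ratio 0.925). The log2 ratio in T-47D minus that in MDA-MB-231 was 1.85. This difference was not tested, as each condition had 1 array, and the MDA-MB-231 ratio lay within the central 95% for its brightness (0.816 to 1.21). The MDA-MB-231 ratio was 0.932 to 0.987 under median centring, quantile normalization, loess and spike-in scaling. Under the same scalings the T-47D ratio ran from 2.15 (spike-ins) to 3.38 (median centring).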

How the results depend on the processing

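With 1 array per condition, no paired analysis was possible because there are no replicates, and no array could be left out. In T-47D, 5 member probe sets were called higher, beside 2.22% of all probe sets. This count was 3 at a 3-fold threshold (0.331% of all) and 3 with spike-in scaling (0.292% of all). It stayed between 4 and 7 under the other alternatives, with 6 at 1.5-fold, where 11.6% of all were called. Leaving out _x_at and _s_at probe sets could not change this count, as none of the 5 has that suffix, nor raise a count of 0. The 7 came with 100 asked of 1 array only (2.95% of all). It includes ATF3 1554980_a_at and TRIB3 1555788_a_at, which passed 100 only on the JPH203 array, and so adds no support. The count called lower in T-47D, and both counts in MDA-MB-231, were 0 under all 11 alternatives. Between the controls, the count higher in MDA-MB-231 was 0, and became 2 with a signal of 100 asked of 1 array only and 4 with spike-in scaling. The count higher in T-47D was 2, and became 0 at a minimum signal of 200, 4 with 100 on 1 array only, 1 at 3-fold and 1 with spike-in scaling. The probe sets of NUPR1, ATF3 and PPP1R15A that were added with 100 on 1 array only passed it in a single control. DDIT3 in the controls was reversed by spike-in scaling, with a ratio of 1.47 in place of 0.445; the cause was not tested. That scaling shifts every log2 ratio by -0.63 in T-47D, 0.09 in MDA-MB-231 and 1.72 between the controls, and so leaves ranks as they were; with it, 0.292% of all probe sets were called higher and 25.2% lower in T-47D, and 78.7% higher and 0.837% lower in the MDA-MB-231 control. CEBPB in T-47D lost its call with quantile normalization (1.77), loess (1.85) and spike-ins (1.30), and CEBPG with spike-ins (1.45). Of the single probe set results under alternatives, 553 kept the same status (called or not), 13 gained a call, 9 lost one and 1 reversed. The 553 include probe sets below the minimum signal, which have no call whatever their ratio. PPP1R15A 202014_at in T-47D, for example, went from 3.65 to 1.87 with the pseudocount and counts as the same. With the mean of all its probe sets for a gene, the synthesis enzymes had 0 of 8 called higher in T-47D and 1 of 7 in MDA-MB-231. Of the 18 member probe sets, 5 were below 100 on all arrays and 6 reached it on all 4.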
